A study of Saccharomyces cerevisiae with 4 samples.

Results

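The seripauperin (PAU), DAN and TIR genes of budding yeast were examined for open chromatin in wild-type (WT) cells and in cells lacking SWC4 (swc4Δ). The list held 32 names, PAU1 to PAU24, DAN1 to DAN4 and TIR1 to TIR4. DAN2 and DAN3 are synonyms of PAU23 and PAU24 in the RefSeq gene table, so the names stood for 30 genes of the 6002 nuclear protein-coding genes: 24 PAU genes, DAN1, DAN4 and 4 TIR genes. A gene was counted as having a peak where a peak shared at least 1 bp with the gene or the 500 bp upstream of it, together called its window.

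All 3 families code for secreted mannoproteins of the cell wall or proteins related to them. They are known as anaerobic genes: with oxygen, heme-dependent repressors such as Rox1 and Mot3 help to keep them off, and without it the sterol-sensing activator Upc2 helps turn them on. The DAN and TIR products then take the place of the wall proteins used in aerobic growth. PAU genes form a large family, lie mostly near telomeres and are close copies of each other, while the TIR genes lie inside the chromosome arms.

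The assay was ATAC-seq, in which the transposase Tn5 inserts sequencing adapters into accessible DNA. Both genotypes were in the strain BY4741, a common laboratory strain, and were grown at 30 °C to mid-log phase, with 2 libraries each. Aeration of the cultures is not stated. The labels do not say whether the 2 libraries of a genotype are separate cultures, and their spread may thus be technical. Peak numbers in the deposited lists were 2354 and 2115 in WT, compared with 2826 and 2368 in swc4Δ. Folds in these lists rose in equal steps of 0.0377 to 0.0424. Each step is read here as 1 fragment, over a background of 22.6 to 25.5 fragments, although the counted unit is not stated. The lowest fold of any peak was 1.61 and 1.56 in WT, against 1.54 and 1.55 in swc4Δ, so weaker openings are not seen. SWC4 itself (chromosome VII, 498476 to 499906, sacCer3) had a peak in 0 of 4 libraries, and peaks therefore give no check of the deletion.

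Most of these genes lay in chromatin without a peak, and more of them had a peak in swc4Δ than in WT. A peak was found at 4 and 7 of the 30 genes in the WT libraries and at 13 and 10 in the swc4Δ libraries. As shares these were 13.3% and 23.3% in WT, compared with 43.3% and 33.3% in swc4Δ. Over all 6002 genes the shares were 51.7% and 44.7% in WT, against 60.8% and 49.8% in swc4Δ. The 30 genes thus stood below the genome in each library, and the 2 genotypes did not overlap for them, whereas they overlapped over all genes. Peaks covered 3.36% and 7.76% of the bases of the 30 windows in WT, compared with 12.9% and 8.57% in swc4Δ. Over all windows they covered 11.7%, 10.1%, 14.8% and 12.0% in the same order. By coverage the genotypes overlapped neither for the 30 genes nor over all genes. With equal numbers of peaks taken from each list they did overlap for the 30 genes.

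The number of these genes with a peak averaged 5.5 ± 2.12 (SD, n = 2) in WT, against 11.5 ± 2.12 (SD, n = 2) in swc4Δ. An exact two-sided permutation test of 2 against 2 libraries gave p = 0.333, the smallest it can give, so the difference of 6 genes could not pass 0.05. With equal numbers of peaks taken from each list the difference was 3 genes and the genotypes overlapped (exact permutation p = 0.667).

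Gene by gene, 4 of the 30 were gained, meaning a peak in each swc4Δ library and none in WT. These were PAU4, PAU10, PAU20 and DAN1. Over all genes 5.28% were gained. The opposite pattern, a loss, was seen at 0 of the 30 and at 1.23% of all genes. A peak in all 4 libraries was found at TIR1, TIR2 and TIR3, or 3 of the 30, against 35.2% of all genes. No peak at all was found at 16 of the 30, each a PAU gene, against 31.2% of all genes. The other 7 genes had a peak in 1 to 3 libraries. Without swc4Δ replicate 2 the gained genes numbered 7, with PAU7, PAU13 and PAU16 added, and 11.5% of all genes were then gained. Without WT replicate 2 they numbered 6, with DAN4 and TIR4 added, against 6.61% of all genes. At a −log10 q of at least 5 they numbered 2, PAU10 and PAU20, against 5.13% of all genes.

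**Figure D1:**
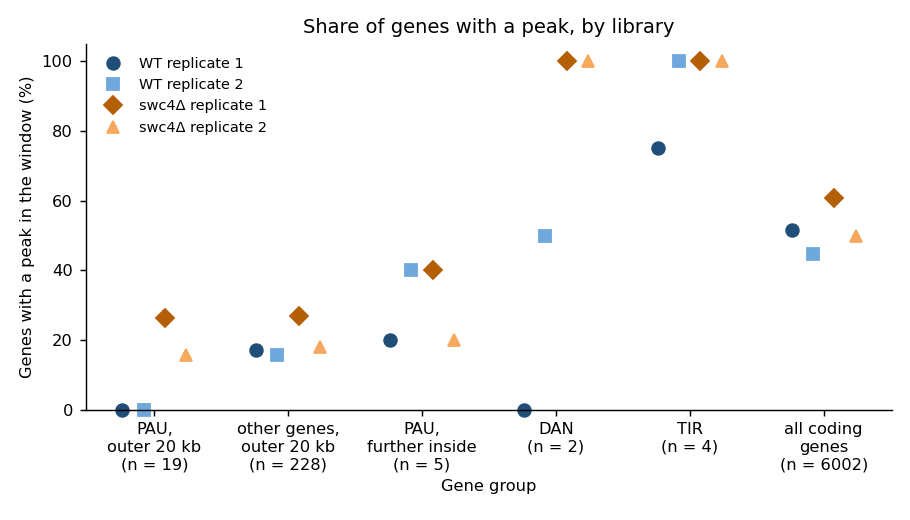
Share of genes (%) with a peak in the window, by gene group on the horizontal axis, with 1 point for each of the 4 libraries. PAU genes in the outer 20 kb of a chromosome sit at 0 in both WT libraries and at 26.3% and 15.8% in swc4Δ, while the 4 TIR genes sit at 75% or above.

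PAU10 had the highest fold among the PAU genes. It lies on the right arm of chromosome IV (YDR542W, 1523249 to 1523611, sacCer3), 8.1 kb from the end. Its folds were 2.92 in swc4Δ replicate 1 (95% counting interval 2.29 to 3.66) and 2.53 in swc4Δ replicate 2 (1.96 to 3.21). Neither WT library had a peak there, and both swc4Δ intervals lay above the lowest folds of the WT lists. These intervals are exact Poisson intervals on the fragments at the summit and cover counting error only. They rest on reading each step of fold as 1 fragment. They do not allow for the higher fold scale of swc4Δ, a median of 1.19 times that of WT over windows with a peak in all 4 libraries. The nearest WT peaks were 0.936 and 1.17 kb from the window, and the other genes within 5 kb, 2 in number, had no peak in any library.

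PAU20 lies on the left arm of chromosome XV (YOL161C, 11549 to 11911), 11.5 kb from the end. Its folds were 2.60 in swc4Δ replicate 1 (2.02 to 3.30) and 2.30 in swc4Δ replicate 2 (1.77 to 2.95), with no WT peak within 4.43 kb of the window. Here too both intervals lay above the lowest WT folds, again without allowance for the higher fold scale of swc4Δ.

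PAU4 lies on the right arm of chromosome XII (YLR461W, 1062919 to 1063281), 14.6 kb from the end. It had folds of 2.17 in swc4Δ replicate 1 (1.64 to 2.82) and 2.04 in swc4Δ replicate 2 (1.54 to 2.65). The second interval reached below the lowest WT folds, so at this depth the absence of PAU4 from the WT lists is not a detectable difference for that library. The authors' WT genotype list had a region at PAU4, with a score of 66, from 38 bp upstream of the start to 271 bp inside the gene. Their swc4Δ genotype list had a region there as well, with a score of 69, and another from 428 to 169 bp upstream, with a score of 215.

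PAU13 on chromosome VIII and PAU16 on chromosome XI had a peak in swc4Δ replicate 1 alone. The PAU13 fold was 2.48 (1.91 to 3.17), and the peak (12505 to 12729) lay inside the neighbouring gene PXP3, with its summit 131 bp past the PXP3 start. At PAU13, too, the authors' WT genotype list had a region over the gene, with a score of 60. Their swc4Δ genotype list had a region there as well, with a score of 69, and another from 555 to 316 bp upstream, with a score of 207. The PAU16 fold was 2.17 (1.64 to 2.82), at a gene 1.81 kb from the left end of its chromosome. Of the other genes within 5 kb of PAU16, 2 in number, both had a peak in swc4Δ replicate 1, and MCH2 was gained.

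The peaks at PAU genes further than 20 kb from an end were weak and came from both genotypes. PAU17 (chromosome XII, 94747 to 95121) had folds of 1.78 and 1.80 in WT, compared with 1.97 in swc4Δ replicate 1, with none in swc4Δ replicate 2. PAU2 on chromosome V had 1.80 in WT replicate 2 and 1.74 in swc4Δ replicate 2. PAU7 on chromosome I had 1.81 in swc4Δ replicate 1. All of these intervals reached below the lowest WT folds, so presence and absence at PAU2, PAU7 and PAU17 are not told apart at this depth. These peaks also ranked low in their own lists, between the percentiles 4.40 and 13.7 of fold. PAU5 and PAU23, the other PAU genes that far inside, had no peak.

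**Figure D2:**
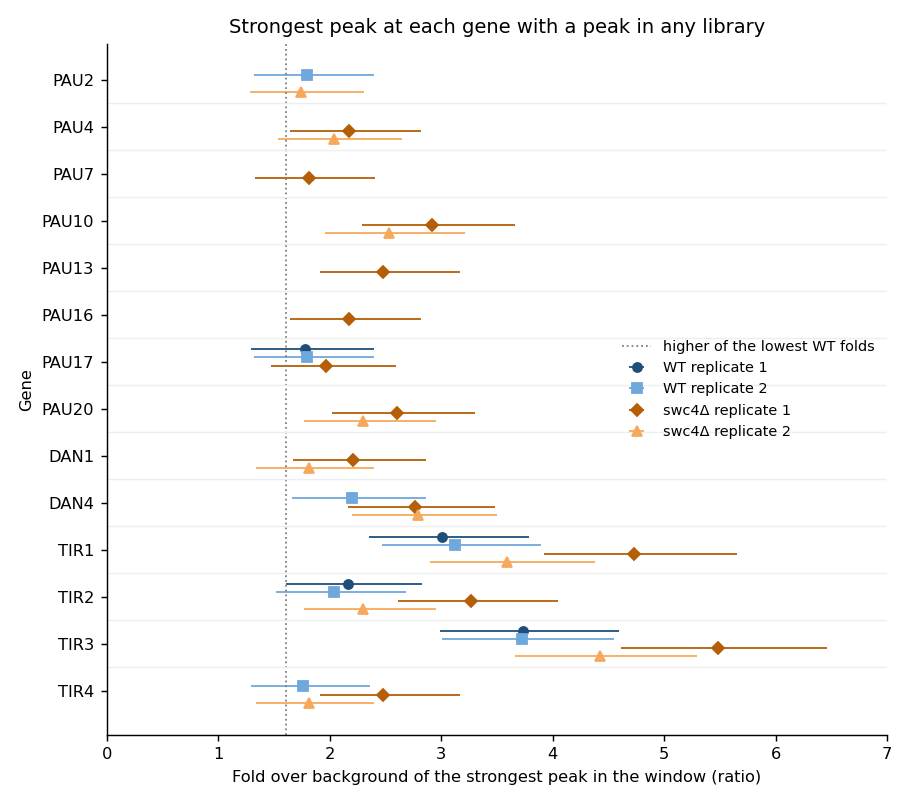
Fold over background (ratio) of the strongest peak in the window at the 14 genes with a peak in any library, with bars for the 95% counting interval and a dotted line at a fold of 1.61. PAU4, PAU7, PAU10, PAU13, PAU16, PAU20 and DAN1 carry swc4Δ points and no WT point, and TIR1 and TIR3 carry the highest folds.

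The swc4Δ peaks at the PAU genes of the chromosome ends lay at almost the same distance from the gene. At PAU4, PAU10, PAU13, PAU16 and PAU20 the 8 peaks had summits between 328 and 362 bp upstream of the annotated gene start and widths of 214 to 417 bp. At PAU20, for example, the summit was 361 bp upstream in swc4Δ replicate 1 and 341 bp in replicate 2, and at PAU4 it was 362 and 352 bp. None of the 8 peaks reached the gene itself. Over all genes with a peak, the median summit was 227 bp and 246 bp upstream in the swc4Δ libraries.

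A band of 300 to 400 bp upstream was then set, after these positions were seen, as a description. It held the strongest summit at 8 of the 13 members with a peak in swc4Δ replicate 1 and at 6 of the 10 in replicate 2. Among all genes with a peak the band held 12.9% and 13.5%. PAU genes whose positions had been seen supplied 5 of the 8 and 3 of the 6, so the excess over all genes is partly built in. The members in the band included TIR1 in both libraries, with summits 394 and 374 bp upstream, and DAN4 in both, with 331 and 301 bp. In WT the band held 1 of 4 members with a peak in replicate 1, TIR1 at 389 bp, and 1 of 7 in replicate 2, PAU2 at 316 bp. The shares over all genes with a peak were 12.4% and 12.8%.

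PAU genes are not independent of each other in such data, because their sequences are close copies. Of the 24, 13 are 363 bp long in the gene table and 5 are 375 bp, and the whole family spans 129 to 495 bp. Reads that match several copies can be placed at any of them or dropped, and the authors' handling of such reads is not stated in the labels or files. A peak at 1 PAU gene can therefore hold reads of another, and a PAU gene without a peak may have lost reads. How far this touches the counts above was not tested.

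**Figure D3:**
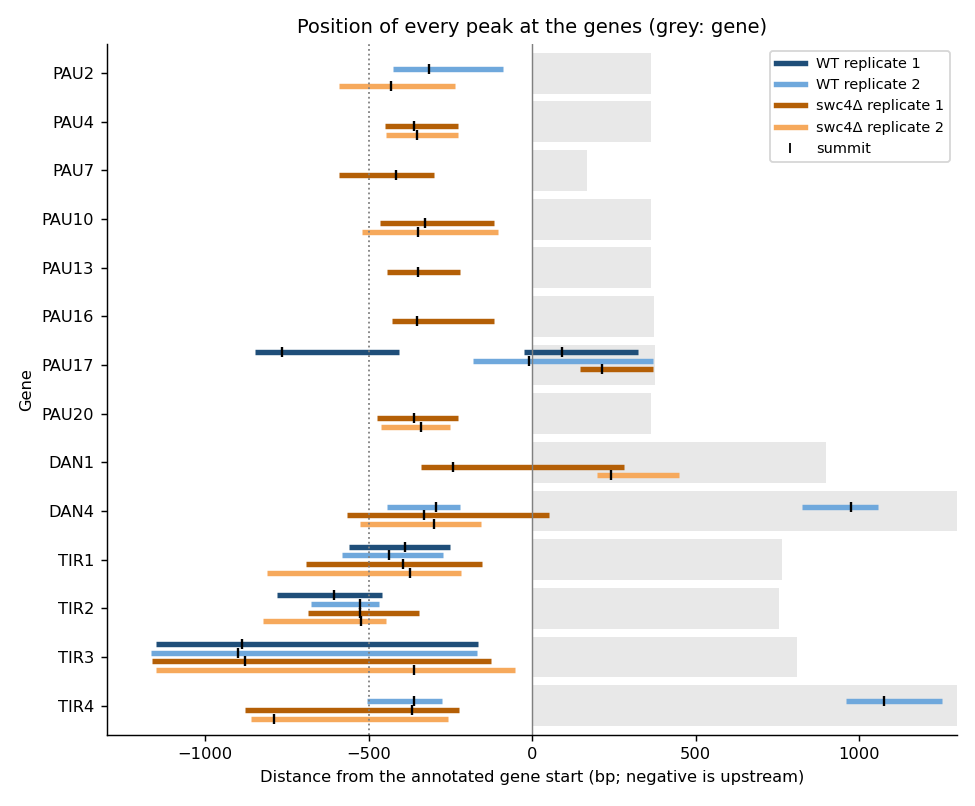
Extent of each peak (coloured bars) and its summit (black ticks) in bp from the annotated gene start at the 14 genes with a peak, with the gene in grey and the upstream window ending at the dotted line. The swc4Δ peaks of PAU4, PAU10, PAU13, PAU16 and PAU20 line up between 328 and 362 bp upstream, and the peaks of PAU17 and DAN1 do not.

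The 16 genes without a peak were PAU1, PAU3, PAU5, PAU6, PAU8, PAU9, PAU11, PAU12, PAU14, PAU15, PAU18, PAU19, PAU21, PAU22, PAU23 and PAU24. Of these, 14 lie in the outer 20 kb. Peaks were sparse around them, and the nearest was a median of 3.29 and 5.33 kb from the window in WT, against 2.99 and 5.21 kb in swc4Δ. PAU22 on the left arm of chromosome XVI had no peak within 13.5 kb in any library, and PAU3 on the right arm of chromosome III none within 7.54 kb. PAU19, at 1.39 kb from the right end of chromosome XIII, was the exception nearest to a peak in WT, at 0.677 and 0.691 kb.

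The DAN genes, which code for wall mannoproteins made without oxygen, lie near each other on the right arm of chromosome X. DAN1 (YJR150C, 708811 to 709707, 36 kb from the end) had no WT peak, a fold of 2.21 in swc4Δ replicate 1 (1.67 to 2.86) and 1.81 in swc4Δ replicate 2 (1.34 to 2.40). Although DAN1 counts as gained, its peaks marked different places, with summits 241 bp upstream of the start and 242 bp inside the gene. The second interval reached below the lowest WT folds, and with the upstream 500 bp alone DAN1 was not gained.

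DAN4 (YJR151C, 712255 to 715740) had no peak in WT replicate 1, a fold of 2.20 in WT replicate 2 (1.66 to 2.86), 2.76 in swc4Δ replicate 1 (2.16 to 3.48) and 2.79 in swc4Δ replicate 2 (2.20 to 3.50). Summits lay 293 bp upstream in WT, compared with 331 and 301 bp upstream in swc4Δ, so the 3 libraries opened the same place. The intervals of the 3 folds overlap. WT replicate 2 also had a weak second peak 976 bp inside the gene, with a fold of 1.88.

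The TIR genes, wall mannoproteins of which TIR1 and TIR2 are also known to be induced by cold, included the members with a peak in all 4 libraries. TIR1 and TIR3 had the highest folds of the group in each library. TIR1 (chromosome V, YER011W, 175248 to 176012, 175 kb from the end) had folds of 3.01 and 3.12 in WT, against 4.73 and 3.59 in swc4Δ. TIR2 (chromosome XV, YOR010C, 346195 to 346950) had 2.16 and 2.04 in WT, compared with 3.27 and 2.30 in swc4Δ. TIR3 (chromosome IX, YIL011W, 333727 to 334536) had 3.73 and 3.72 in WT, against 5.48 and 4.42 in swc4Δ. At these 3 genes both swc4Δ values were above both WT values. The share of all windows with that order of folds was not counted, so this says nothing particular about the 3.

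The fold scale itself was higher in swc4Δ, so these folds are read against the genome. Over the 2114 windows with a peak in all 4 libraries the mean swc4Δ fold was a median of 1.19 times the mean WT fold. The same ratio was 1.36 at TIR1, 1.33 at TIR2 and 1.33 at TIR3, at the percentiles 82.0, 77.5 and 77.9 of those windows. Ranked among the same 2114 windows, TIR1 stood at the percentiles 46.5 and 63.8 in WT, compared with 66.4 and 64.3 in swc4Δ. TIR2 stood at 6.58 and 9.41 in WT, against 30.7 and 17.8 in swc4Δ, and TIR3 at 73.5 and 81.2 in WT, compared with 80.0 and 84.5 in swc4Δ. Both swc4Δ ranks exceeded both WT ranks at TIR1, by a narrow margin, and at TIR2, but not at TIR3. Of all 2114 windows 23.8% showed that order.

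At TIR1 peaks were 310 and 311 bp wide in WT, against 538 and 595 bp in swc4Δ. At TIR2 widths were 322 and 209 bp in WT, compared with 341 and 375 bp in swc4Δ. TIR2 summits lay 522 to 605 bp upstream, outside the window, and the peaks reached into it.

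The TIR3 peak was the widest, at 984 to 1100 bp, and lay in the gap to the divergent gene PDR11, which codes for a sterol transporter of anaerobic growth. In both WT libraries and swc4Δ replicate 1 its summit lay 387 to 406 bp upstream of PDR11 and 879 to 898 bp upstream of TIR3. In swc4Δ replicate 2 the summit was 360 bp upstream of TIR3. The fold at TIR3 is therefore also that of PDR11, and the peak covers the small open reading frame YIL012W.

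TIR4 (chromosome XV, YOR009W, 344335 to 345798), convergent with TIR2, was the weakest of the 4. It had no peak in WT replicate 1. WT replicate 2 had a fold of 1.76 at a summit 1077 bp inside the gene and 1.72 at a summit 360 bp upstream. The swc4Δ folds were 2.48, with the summit 366 bp upstream, and 1.81, with the summit 789 bp upstream. The nearest peak in WT replicate 1 was 0.105 kb outside the window, and with 1000 bp upstream TIR4 had a peak in all 4 libraries. The TIR4 peaks of WT replicate 2 and swc4Δ replicate 2 had intervals that reached below the lowest WT folds.

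In the 4 per-library lists, the members with a WT peak all lay further than 20 kb from a chromosome end. The authors' WT genotype list, a separate list without replicates, did touch PAU3, PAU4 and PAU13 in the outer 20 kb, with scores of 47, 66 and 60. All 19 members in the outer 20 kb are PAU genes, at 1.39 to 14.6 kb from the end. In WT 0 of these 19 had a peak in either library, and in swc4Δ 5 and 3 had one. The 11 members further inside, at 30.0 to 346 kb, had a peak at 4 and 7 genes in WT, against 8 and 7 in swc4Δ. Inner members thus overlapped between genotypes, and outer ones did not, as was also the case for the other genes of the outer 20 kb given next. Whether the difference itself varies with distance was not tested.

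**Figure D4:**
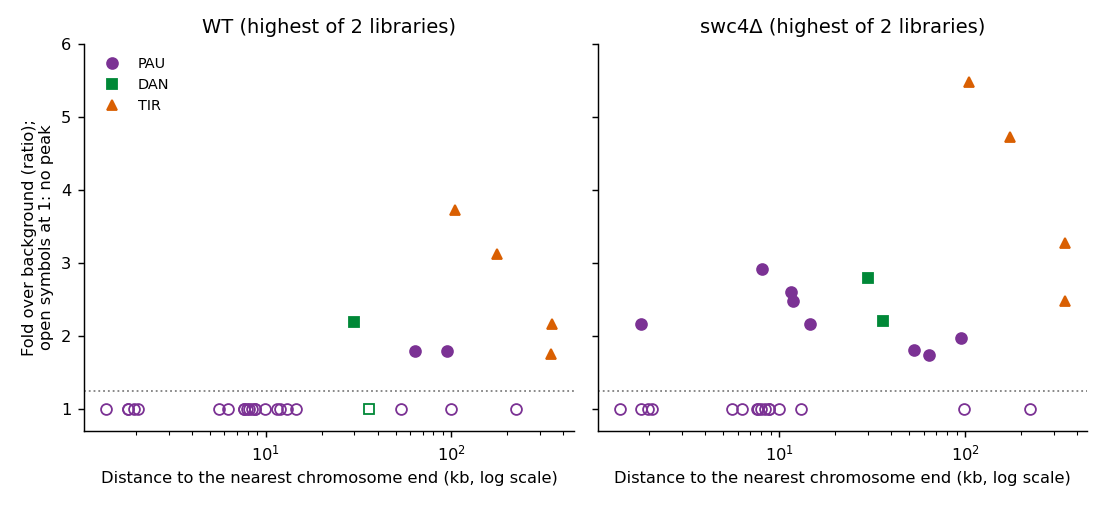
Highest fold over background (ratio) of the 2 libraries of each genotype at the 30 genes, against distance to the nearest chromosome end in kb on a log axis, with open symbols at 1 for genes without a peak. In WT no gene within 20 kb of an end has a peak, and in swc4Δ 5 PAU genes there have 1.

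Unlike these PAU genes, some of the other genes of the chromosome ends had a peak in WT. Of the 228 other protein-coding genes in the outer 20 kb, 39 and 36 had a peak in WT (17.1% and 15.8%) and 61 and 41 in swc4Δ (26.8% and 18.0%). The PAU genes there therefore stood 17.1 and 15.8 points below their neighbours in WT, compared with 0.439 and 2.19 points below in swc4Δ. That gap narrowed by 15.1 points from WT to swc4Δ. The exact two-sided permutation test over the 4 libraries gave p = 0.333, the smallest possible, so the difference could not pass 0.05. Among the 228, 7 were gained (3.07%), against 3 of the 19 PAU genes. With ends of 10 kb the gap narrowed by 6.82 points. In swc4Δ the sign of the gap depended on the window. PAU genes minus other genes gave 4.82 and 2.19 points with 300 bp upstream, and −7.46 and −7.89 points with 1000 bp. By coverage, peaks held 8.25% and 5.04% of the bases of the PAU windows in swc4Δ, against 5.49% and 3.4% for the other genes. In WT they held 0% in both libraries, against 2.72% and 2.61%.

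Chromosomes differed in their peak numbers between genotypes, and this touches PAU2, PAU10, PAU13, PAU16 and TIR1. On chromosome IV, which holds PAU10, 13.2% of genes were gained, on VIII 10.6% and on XI 28.9%. On V, which holds PAU2 and TIR1, 3.12% were gained. Chromosome V had 136 and 130 peaks in WT, against 137 and 175 in swc4Δ. On XII, XV and X, which hold PAU4, PAU20 and DAN1, 2.31%, 2.57% and 2.19% were gained. Without IV, V, VIII and XI, where swc4Δ libraries had more peaks in an earlier analysis of these data, 3 of 25 members were gained against 1.94% of all genes. The difference in members with a peak was then 4 genes (exact permutation p = 0.333).

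Most genes known to regulate or accompany this group in anaerobic growth were open in both genotypes. Among 11 regulators 10 had a peak in all 4 libraries, including UPC2, the activator, and ROX1 and MOT3, the repressors. None of the 11 was gained or lost, which at 5.28% gained and 1.23% lost over all genes says nothing particular about a list this short. The exception was TUP1, the corepressor gene, with a peak in WT replicate 1 alone (fold 1.82). Of 12 other genes of low-oxygen growth 10 had a peak in all 4 libraries, and COX5B and HMG2 did not. In that list 0 were gained or lost, which for the same reason says nothing particular. Of 12 wall protein genes used in aerobic growth, such as CWP1, CWP2 and TIP1, 11 had a peak in all 4 libraries. Over all genes 35.2% had a peak in all 4 libraries. PIR3, which codes for a wall glycoprotein, was gained, with folds of 5.16 and 3.59, and lies on chromosome XI. The same folds were counted at PIR1, its divergent neighbour, which also had a peak in WT, with folds of 2.97 and 2.52.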

How the data were processed

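The submitters' processing notes name the build sacCer3 and the tools Bowtie2 2.3.1, SAMtools 1.4, Picard 2.18.7, deepTools 1.5.11 and Trim Galore 0.5.0, without their roles. Neither the peak caller nor any Tn5 shift is given. Peak names show that the authors called peaks per library. Each peak in the deposited lists has a fold over background (a ratio) and p- and q-values as −log10. The folds are the authors' own and were used to describe and rank peaks. All folds lay within 0.01 of a whole step, and Poisson p-values computed with a single background for each library differed from the deposited −log10 values by at most 0.00015. The authors deposited 2 further lists, 1 per genotype, with a whole-number score. Their genotype was read from the code in their names.

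Genes came from the RefSeq table of R64, the assembly that sacCer3 names, with strand read from the systematic name. Chromosome ends were the largest coordinate in the table or the lists. Overlaps, exact permutation tests and Poisson intervals used Python 3.11.15, numpy 2.4.6, pandas 2.3.3 and scipy 1.17.1, and the overlap code was tested on simulated data. All members are accounted for, each gene with a peak is named, and genes of 3 further lists are named where gained or lost, with others added as examples after their values were seen. The members and lists were chosen with earlier results of these data known. The sequences of these genes were not analysed here. Alternatives were a −log10 q of at least 5, equal list lengths, upstream windows of 300 and 1000 bp, the upstream part alone, 100 bp of overlap, summits, chromosome ends of 10 kb, chromosomes IV, V, VIII and XI left out, each library left out and a replicate block.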

Additional observations from a re-analysis of the deposited data

Results flagged for a closer look

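Some PAU genes without a peak in any library were touched by the authors' swc4Δ genotype list and not by their WT genotype list. The scores of these regions were 147 at PAU15, 127 at PAU11, 69 at PAU6 and 51 at PAU18, against a median score of 244.5 and a lowest score of 30 in that list. The genotype lists have no replicates and are of unequal length (1002 WT and 2602 swc4Δ regions). They touched 5 and 16 of the 30 members, and 25.2% and 59.0% of all genes, so the difference in members was not tested. The swc4Δ list touched both DAN genes, with scores of 217 and 336, and all 4 TIR genes, with scores of 211 to 611. PAU3, PAU4 and PAU13 were touched in both lists. Scores were 47 in WT and 46 in swc4Δ at PAU3, which had no peak in the 4 libraries. Regions over the gene scored 66 in WT and 69 in swc4Δ at PAU4, and 60 and 69 at PAU13. The swc4Δ list had another region upstream at each, with scores of 215 at PAU4 and 207 at PAU13. PAU4 and PAU13, which had peaks in swc4Δ libraries alone, thus also carry a WT region in these lists.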

How the results depend on the processing

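The difference in members with a peak (6 genes) kept its direction under all 9 alternatives, at 3 to 6.5 genes. The replicate block, counted among the 9, could not change it. The difference was 4.5 to 7.5 with a library left out. The change from WT to swc4Δ in the gap between members and other genes of the chromosome ends (15.1 points) was 6.82 to 16.4 points. It was 14.3 to 16 with a library left out. The covered share of member windows (5.18 points more in swc4Δ) was 2.35 to 12.4 points, and 2.98 to 7.38 with a library left out. By this share the genotypes overlapped with 300 bp upstream, with equal list lengths and without chromosomes IV, V, VIII and XI. The exact permutation test gave p = 0.667 for each of these settings. Gained members fell from 4 to 2 at a −log10 q of at least 5 (5.13% of all genes gained) and also with equal list lengths (3.97%), and were 4 to 7 with a library left out (6.61% to 11.5%, and 10.1% without WT replicate 1, where they were 4). Lost members were 1 (PAU17) with the upstream 500 bp alone, against 1.05% of all genes. With a library left out they were 0 to 1, against 1.58% to 5.41% of all genes. Members with a peak in all 4 libraries fell from 3 to 1 where the summit had to lie inside the window. Over all genes that share fell from 35.2% to 22.0%. These members were 3 to 5 with a library left out, against 35.6% to 40.1% of all genes. Apart from settings that use fewer peaks, genes or libraries by construction, the cause was not tested. A replicate block averages the same differences, so the values of 6, 15.1 and 5.18 could not change. Its exact sign-flip test gave p = 0.5, the smallest possible with 2 pairs. The replicate numbers share no stated culture, and deviations of same-numbered libraries had a correlation of −0.0281 over 2114 windows. Depth limits the weak peaks: counting intervals of member peaks reached down to the lowest WT folds at folds up to 2.04.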
